A study of Mus musculus with 4 samples.

Results

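Endogenous retroviruses of class ERV1 are remnants of retroviruses that entered the germ line and are related to today's gammaretroviruses, the genus of murine leukaemia virus. A complete copy has an internal part that derives from the viral genes gag, pol and env and a long terminal repeat (LTR) on each side, which carries the promoter and the polyadenylation signal. Most copies in mammalian genomes carry CG methylation, which is known to hold such elements silent, and DNMT1 is the methyltransferase that maintains it through cell division. Reduced representation bisulfite sequencing was read in C3H10T1/2, a line derived from C3H mouse embryos that behaves as mesenchymal stem cells. Cells received either a non-targeting siRNA (NC) or siRNA against DNMT1 (siDNMT1) for 48 h, and were left uninduced or then taken through osteoblast (OB) induction for 3 days with L-ascorbic acid, β-glycerophosphate and dexamethasone. Each of the 4 groups, namely NC uninduced, siDNMT1 uninduced, NC OB and siDNMT1 OB, was 1 library, so no difference below has a replicate check, and no test was run. The amount of DNMT1 left after transfection is not measured by these values.

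The members are the repeat entries whose class is written LTR/ERV1 and that have a methylation level in all 4 libraries. There were 1341 such entries, out of 1532 listed in any library, 44955 repeat entries of every class and 151644 regions of every kind. The methylation level is the fraction of CG cytosines read as methylated, from 0 to 1, as the authors deposited it. No counts of reads come with it, which leaves its depth unknown and its counting error out of reach. An entry is known by a subfamily name and by the first and last base it covers of that subfamily's consensus, the reference sequence of the subfamily. RLTR6-int 1-7778, for example, covers bases 1 to 7778 of the RLTR6 internal consensus. These are not genome positions, so chromosome, neighbouring genes and CG content of an entry are unknown, and it is not stated how many genomic copies share an entry. The entries bore 96 subfamily names, 19 of which had at least 20 entries and together held 953 entries (71.1%). LTRs made up 736 entries and internal parts 605, and the stretch of consensus covered ran from 33 to 7778 bases with a median of 482.

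The libraries did not list the same number of ERV1 entries. NC uninduced listed 1449, siDNMT1 uninduced 1458, NC OB 1445 and siDNMT1 OB 1402, the lowest, which was also the library with the fewest regions of every kind (155398 against 158494 to 159705). Of the 191 entries not seen in every library, 31 were missing only from siDNMT1 OB, 25 only from siDNMT1 uninduced, 6 only from NC OB and 4 only from NC uninduced. These 191 were shorter, with a median of 378 bases of consensus against 482 for the members.

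No ERV1 entry can be tied to a place in the genome, but RefSeq annotates a joined LTR and internal part of this class on chromosome 17 of GRCm38. Stretches of both are shown as examples of how CG pairs lie in such copies. They are not known to be the CG pairs behind any level given here. The LTR is an LTRIS4 copy at chr17:34825295-34825783, and the internal part is a MuRRS4-int copy, marked as partial, at chr17:34825787-34826160. Both lie within the span of the gene Stk19 (34823993 to 34836945, minus strand), inside exons of noncoding transcript models only and in no UTR. LTRIS names are LTRs of the mouse, and MuRRS stands for murine retrovirus-related sequences. Each is printed on the plus strand, 5′ to 3′, with the CG pairs in capitals. The LTRIS4 stretch is chr17:34825484-34825783, the last 300 bases of the copy, and the MuRRS4-int stretch is chr17:34825787-34826086, the first 300 bases of its copy.
LTRIS4: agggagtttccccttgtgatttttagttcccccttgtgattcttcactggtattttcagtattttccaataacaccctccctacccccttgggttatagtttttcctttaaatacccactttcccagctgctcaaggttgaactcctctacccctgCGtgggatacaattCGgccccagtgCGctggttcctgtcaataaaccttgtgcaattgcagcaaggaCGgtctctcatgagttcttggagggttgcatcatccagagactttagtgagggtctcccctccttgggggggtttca
MuRRS4-int: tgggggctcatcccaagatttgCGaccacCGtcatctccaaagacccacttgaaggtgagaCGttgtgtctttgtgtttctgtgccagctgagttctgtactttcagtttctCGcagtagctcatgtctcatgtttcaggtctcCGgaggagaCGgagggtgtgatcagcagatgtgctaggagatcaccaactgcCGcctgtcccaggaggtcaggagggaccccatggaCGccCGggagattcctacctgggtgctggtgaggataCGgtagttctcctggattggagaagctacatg
The LTRIS4 copy holds 4 CG pairs in 489 bases (0.818 per 100 bases), all in the stretch shown, and the MuRRS4-int copy 12 in 374 (3.21 per 100 bases), 10 of them in the stretch shown. Whether any entry in the data covers these copies is not known. The data hold 4 LTRIS4 entries and 55 MuRRS4-int entries. The longest LTRIS4 entry, 1-507, had levels of 0.448 in NC uninduced, 0.472 in siDNMT1 uninduced, 0.471 in NC OB and 0.436 in siDNMT1 OB. Its 4 values lay close together, and the mean levels of the LTRIS4 entries ran from 0.457 to 0.702. The MuRRS4-int entries had a median mean level of 0.561, with single entries from 0.101 to 0.898.

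ERV1 entries were methylated at an intermediate level in every library. The median level was 0.535 (quartiles 0.4 and 0.683) in NC uninduced, 0.531 (0.393 and 0.682) in siDNMT1 uninduced, 0.544 (0.393 and 0.687) in NC OB and 0.523 (0.376 and 0.675) in siDNMT1 OB. The medians of the 4 libraries thus lay far closer together than the entries of any 1 library did. Levels below 0.2 were found in 98, 98, 97 and 114 entries, and levels of at least 0.8 in 121, 104, 119 and 97, in the same order of libraries. Over all repeats the medians were lower, at 0.491, 0.485, 0.497 and 0.479, and a smaller share of ERV1 entries than of all repeats was below 0.2 (7.16% against 12.7% by the mean of the 4 libraries). The other retroviral classes were close to ERV1, with medians in NC uninduced of 0.54 for ERVK (5388 entries), 0.527 for ERVL (1234) and 0.528 for ERVL-MaLR (3650). Entries kept their rank from library to library, with Spearman's rho between 0.947 and 0.964 across the 1341 entries, which are not independent replicates.

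**Figure D1:**
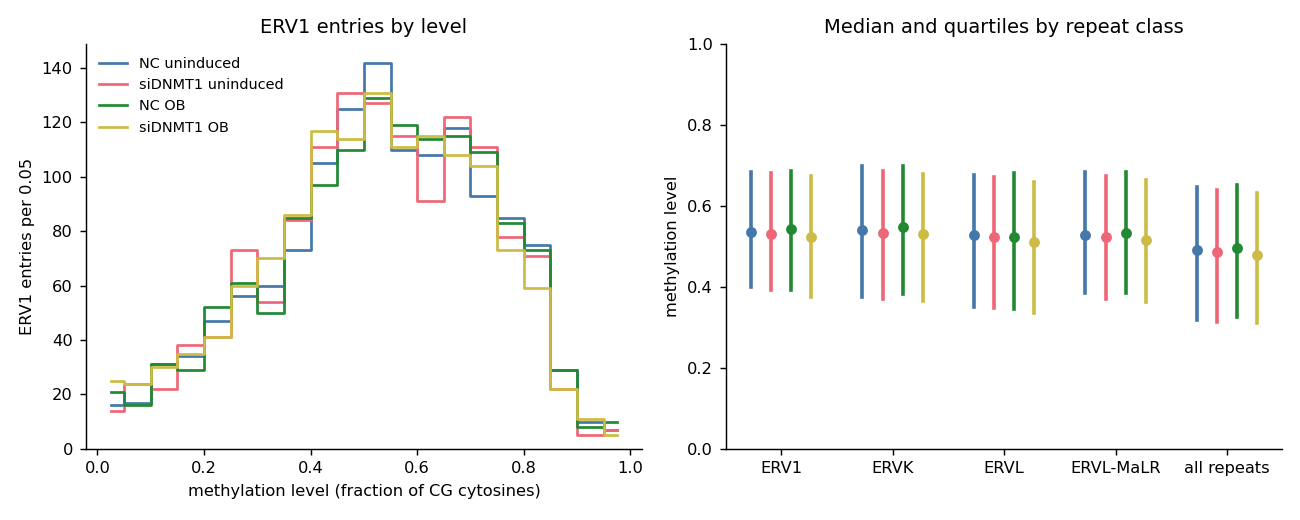
Left, number of ERV1 entries (y axis) in steps of 0.05 of methylation level (x axis, fraction of CG cytosines), 1 line per library. Right, median (point) and quartiles (bar) of the level by repeat class and library. The 4 ERV1 lines follow each other with medians from 0.523 to 0.544, and ERV1 lies above all repeats in every library.

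Subfamilies differed in level by more than the libraries did. Among the 19 with at least 20 entries, the median of the entries' mean levels ran from 0.423 in RLTR1D2_MM and 0.433 in RLTR1D to 0.671 in RLTR1B and 0.674 in RLTR4_MM-int, the internal part of murine leukaemia virus-like proviruses. The order is loose, since quartiles of neighbours overlapped, and even those of RLTR1D2_MM (0.324 and 0.581) and RLTR4_MM-int (0.476 and 0.773) did. RLTR6-int was the tightest large subfamily, with 72 entries, a median of 0.606 and quartiles of 0.543 and 0.678. MLTR14, the subfamily with the most entries (110), had a median of 0.508 and entries from 0.0384 to 0.855. Grouped by kind, the gammaretrovirus-like rodent families (murine leukaemia virus, VL30, GLN, RLTR1 and MuRRS names, 633 entries) had a median of 0.573, LTRIS (34) 0.511, other rodent names (325) 0.498, the MER and LTR names, many of them shared among mammals (116), 0.486, and MLTR, MERV1 and MURVY names (233) 0.526.

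**Figure D2:**
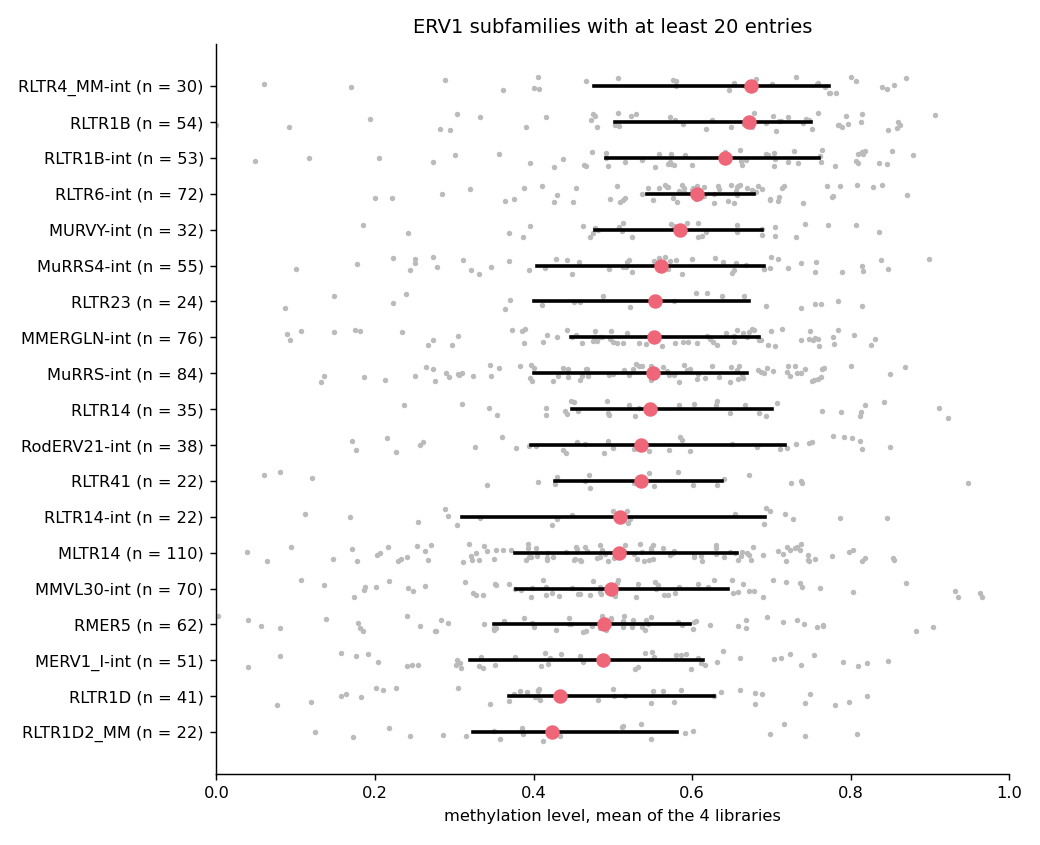
Methylation level of each entry as the mean of the 4 libraries (x axis, fraction) for the 19 subfamilies with at least 20 entries (y axis), with the median (large point) and quartiles (bar). Medians run from 0.423 to 0.674, while entries of a single subfamily spread over most of the scale.

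In the small subfamily MuLV-int, internal parts of murine leukaemia virus, the lower levels were in entries confined to 1 stretch of the consensus. The subfamily had 11 entries and a median of 0.751. The 5 entries that lie within bases 1427 to 4449 had mean levels from 0.0951 to 0.532. The other 6, which start at base 1 or end beyond that stretch, had mean levels from 0.751 to 0.878. Covering the stretch did not by itself go with a low level. The entries 1-5946 and 1-7606 cover all of it and had mean levels of 0.751 and 0.878. The 5 lower entries span 240 to 3023 bases and the other 6 span 1454 to 7606, so position and length were not separated. The near-complete entry 1-7606 was at 0.877 in NC uninduced, 0.869 in siDNMT1 uninduced, 0.88 in NC OB and 0.888 in siDNMT1 OB. All 4 libraries were alike in it. The entry 3508-3786 was at 0.0787, 0.104, 0.111 and 0.087 in the same order. It was low in all 4 libraries.

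LTRs had a lower median than internal parts over all entries (0.511 against 0.569), but this did not hold family by family. The RLTR6 LTRs, which flank VL30 elements, had a median of 0.382 over 13 entries (quartiles 0.281 and 0.509), and RLTR6-int one of 0.606. Among the pairs that share a name these were the most distant, and the only ones whose quartiles did not overlap. Set against MMVL30-int, the internal part of VL30, with a median of 0.498 (0.378 and 0.645), the same LTRs were lower by 0.117 and the quartiles overlapped. MURVY, a family repeated on the Y chromosome, also had the lower value in its LTRs (0.512 against 0.585). The RLTR4 LTRs were higher than their internal part (0.746 over 9 entries against 0.674), as were those of MERV1 (0.555 against 0.487), RLTR14 (0.547 against 0.509) and RLTR1B (0.671 against 0.641). The pair of GLN medians was nearly equal, at 0.554 in MMERGLN_LTR and 0.552 in MMERGLN-int.

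Of the internal subfamilies compared, MMVL30-int had the level most correlated with position along the consensus. The RNA of VL30 is packaged by murine leukaemia virus. With the consensus cut into 4 equal stretches and each entry placed by its midpoint, the median level was 0.576 in the first stretch (38 entries), 0.459 in the second (23), 0.352 in the third (7) and 0.442 in the last (2). Across its 70 entries, Spearman's rho of level with midpoint was -0.409 and with length -0.397, and midpoint and length were themselves correlated (rho 0.715). Position and length thus cannot be told apart in MMVL30-int. MMERGLN-int entries with midpoints in the middle were higher, with 0.483, 0.653, 0.59 and 0.455, and longer entries had higher levels (rho 0.429 over 76 entries). Its 17 entries of at least 7000 bases had a median of 0.678. Their midpoints fall in the middle although they cover nearly the whole consensus, so position and length cannot be told apart there. RLTR6-int showed little trend with position (rho -0.0141). In MERV1_I-int (51 entries) the medians were 0.611, 0.541, 0.412 and 0.416 from the first stretch to the last. Its rho of level was -0.173 with midpoint and 0.0172 with length. Entries of one subfamily overlap on the consensus and may share copies, so these values are descriptions.

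**Figure D3:**
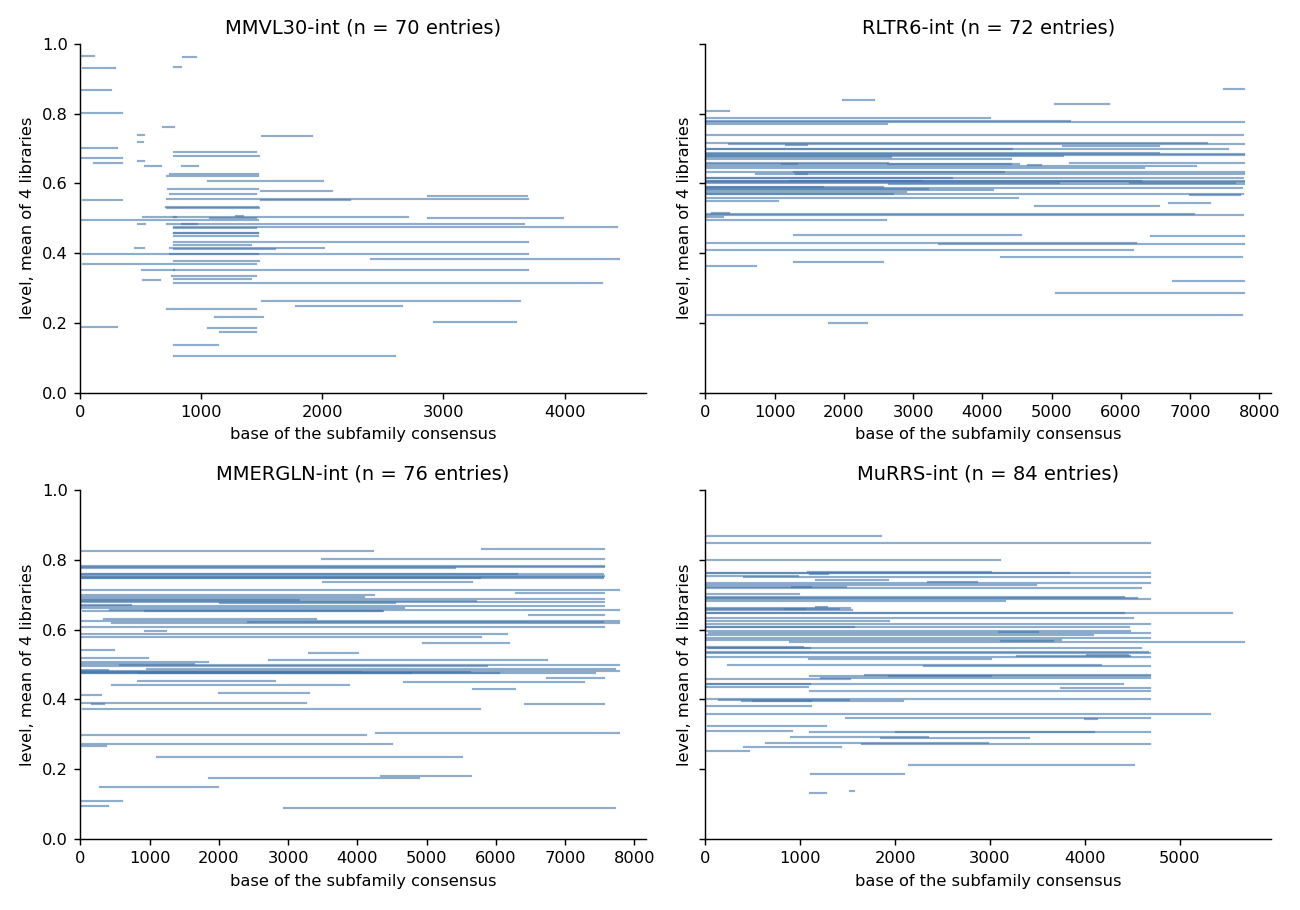
Each bar is 1 entry of an internal subfamily, drawn over the consensus bases it covers (x axis, base number) at its mean level over the 4 libraries (y axis, fraction). MMVL30-int is highest near its start and has entries above 0.9 there, whereas long RLTR6-int and MMERGLN-int entries lie mostly between 0.4 and 0.8.

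A few entries were at an end of the scale in every library. Levels below 0.1 in all 4 libraries were found in 22 entries of 17 subfamilies. Of these, MER34A 384-571 and RLTR1B 1-144 were at 0 in all 4 libraries, as were 58 of the 44955 repeat entries of every class. RMER5 130-529 was at 0, 0.00417, 0.00441 and 0 (NC uninduced, siDNMT1 uninduced, NC OB and siDNMT1 OB, an order kept below). The next lowest were MLTR73 141-263, with a mean level of 0.0247, and RLTR14_RN 6-187, with 0.0339. Most of the low entries are short LTR pieces, but MERV1_I-int 1-3298 covers 3298 bases and was at 0.0883, 0.0818, 0.0847 and 0.0669. At the other end, 9 entries were at 0.9 or more in all 4 libraries, with a median of 111 bases. MMVL30-int gave 4 of them, all within bases 1 to 955 of its consensus. Its entry 1-116 was at 0.95, 0.961, 0.964 and 0.985. None of these 31 entries, low or high, differed by 0.1 or more in either siDNMT1 comparison. Their selection within 0.1 of an end of the scale in all 4 libraries left almost no room for that.

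The comparison of siDNMT1 with NC asks how the methylation of these retroviral copies differs when DNMT1 is depleted. Before OB induction the levels were slightly lower in siDNMT1. The median difference (siDNMT1 minus NC) over the 1341 entries was -0.00521 (95% order-statistics interval -0.00678 to -0.00314). By sign, 764 entries (57%) were lower and 570 higher, and 57.6% of all repeats were lower. The interval treats entries as independent and covers no variation between cultures. Counting a change from 0.1 in level, 39 entries fell (2.91%) and 29 rose (2.16%), where 3.52% of all repeats fell and 2.89% rose. The share that fell among changed entries was 57.4%, and its 95% Wilson interval of 45.5% to 68.4% includes an even split. The median difference over all repeats was -0.00535. ERV1 thus shifted by about as much as repeats in general, and changed entries were no more frequent in it.

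After OB induction the difference was larger. The median was -0.0157 (-0.0177 to -0.014), with 929 entries lower (69.3%, against 68.4% of all repeats) and 404 higher. By the same count 73 entries fell (5.44%) and 36 rose (2.68%), where 5.41% of all repeats fell and 3.11% rose. The share that fell was 67% (57.7% to 75.1%). All repeats had a median of -0.0158, ERVK -0.0167, ERVL -0.0166 and ERVL-MaLR -0.0187, so the ERV1 value was close to that of every related class. Taken entry by entry, the OB difference was below the uninduced one in 61.4% of ERV1 entries, by a median of -0.0112, and in 60.5% of all repeats, by a median of -0.0108. When each library was centred on its own median over all repeats, the ERV1 medians became 0.000818 before and 0.00241 after induction, so that neither lay below 0 once the shift of all repeats was taken out.

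The NC libraries share their siRNA and differ in OB induction. The induced cells also had its 3 days of culture, so induction and time since transfection go together. Between the NC libraries the ERV1 median difference (OB minus uninduced) was 0.00426 (0.00221 to 0.00645), or -0.00241 after centring. There, 48 entries fell (3.58%) and 47 rose (3.5%), where 3.33% of all repeats fell and 3.66% rose. Between the siDNMT1 libraries the median was -0.00723, with 69 entries that fell (5.15%) and 40 that rose (2.98%). Over all repeats this median was -0.00347, nearer to 0, as it was in ERVK (-0.00357) but not in ERVL (-0.00807) or ERVL-MaLR (-0.00857). Of all repeats, 5.35% fell and 3.92% rose. The number of entries past 0.1 was thus 68 and 109 in the siDNMT1 comparisons and 95 between the NC libraries. The uninduced siDNMT1 comparison gave fewer changed entries than a pair of libraries with the same siRNA.

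The shift was spread over subfamilies. In OB cells the median difference was below 0 in 19 of the 19 large subfamilies, from -0.00919 in RLTR1D2_MM to -0.0275 in RLTR14, and the interval lay below 0 in 14 of them. In uninduced cells it was below 0 in 18 of 19, but the interval lay below 0 in RLTR4_MM-int alone (-0.0131, -0.0219 to -0.000368). These directions include the shift of all repeats, and after centring the median lay below 0 in 8 of 19 in OB cells and in 11 of 19 in uninduced cells. As deposited, 54 of 70 MMVL30-int entries were lower in siDNMT1 OB, where 68.4% of all repeats were. MMVL30-int was among the subfamilies with a median below 0 in OB cells after centring (-0.00573, from -0.0238 as deposited). RLTR14 was another (-0.00937, from -0.0275), while MMERGLN-int went from -0.0113 to 0.00681.

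By kind, the MER and LTR names had the OB median nearest to 0 in the levels as deposited. Their medians were 0.0059 (-0.00436 to 0.011) before and -0.00887 (-0.0188 to 0.0041) after induction. The gammaretrovirus-like rodent families had -0.00549 and -0.0154, the other rodent names -0.00594 and -0.0174, and LTRIS 0.00146 and -0.0261. After centring, the MER and LTR medians were the highest, at 0.0119 before and 0.00924 after induction, and the OB one was the farthest from 0 of the 5 groups. The LTRIS medians were then 0.0075 and -0.00799, and those of the gammaretrovirus-like (0.000543 and 0.00266) and other rodent names (8.84e-05 and 0.000721) lay just above 0. Over entries at 0.5 or more by mean level, the MER and LTR median in OB cells was -0.0169, about that of the other rodent names (-0.0166). LTRs and internal parts were alike, with -0.00547 and -0.00484 before and -0.0154 and -0.0158 after induction, but 10.3% of LTR entries and 5.45% of internal ones changed by 0.1 or more in OB cells, where 8.53% of all repeats did. Between the NC libraries the same shares were 9.92% and 3.64%, so the gap between LTRs and internal parts was also there with the same siRNA. LTR entries were also shorter, with a median of 362 bases of consensus against 1372, and part and length were not separated.

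RLTR6-int was the large subfamily without a lower uninduced median. Its median difference was 0.00149 (-0.01 to 0.0107) before induction and -0.0193 (-0.0291 to -0.0121) after it. After centring these medians were 0.00753 and -0.00123. As deposited, 34 and 54 of its 72 entries were lower in siDNMT1, where 57.6% and 68.4% of all repeats were. Its 18 entries that cover at least 7000 bases, the near-complete internal parts, showed the same, with 7 lower before and 16 lower after induction. Over these 18 the median differences as deposited were 0.0082 before and -0.0253 after induction. The entry 1-7055 was the only member of the 18 that changed by 0.1 or more in either comparison. It was at 0.477 in NC uninduced, 0.559 in siDNMT1 uninduced, 0.567 in NC OB and 0.45 in siDNMT1 OB. The siDNMT1 level was the higher before induction and the lower after it, by 0.117 on the level scale. The 17 MMERGLN-int entries of this length were lower in 13 before and in 15 after induction, by medians of -0.00842 and -0.00984. Values of the long entries of both subfamilies after centring are not given here.

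How far single entries moved went with the length of consensus they cover. In uninduced cells, 9.95% of entries of up to 200 bases changed by 0.1 or more and 2.88% of those above 2000 bases, against 6.41% of all repeats. The interquartile range of the difference was 0.0608 and 0.0281 in these classes, while the medians, -0.00668 and -0.0053, hardly differed. Between the NC libraries the shares were 14.2% and 2.06%, against 7% of all repeats. The OB medians varied little with the mean level, at -0.014, -0.0171, -0.017 and -0.0169 in the 4 classes of mean level from 0.2 upward. Only the entries below 0.2 had a smaller one, -0.00413 (-0.012 to 0.00248).

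Few entries changed in both siDNMT1 comparisons. Below NC by 0.1 or more in both were 7 entries (0.522%), 2 were above it in both (0.149%), and 15 changed in opposite directions (1.12%). Over all repeats these shares were 0.716%, 0.492% and 1.15%, so changes in opposite directions were as frequent as in repeats at large. Differences of any size were below 0 in both for 543 entries (40.5%) and above 0 in both for 185 (13.8%), against 41% and 14.3% of all repeats. The comparisons use separate libraries, and the differences of an entry in them were nearly unrelated (Spearman's rho 0.00955 over 1341 entries, 0.0574 over all repeats).

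**Figure D4:**
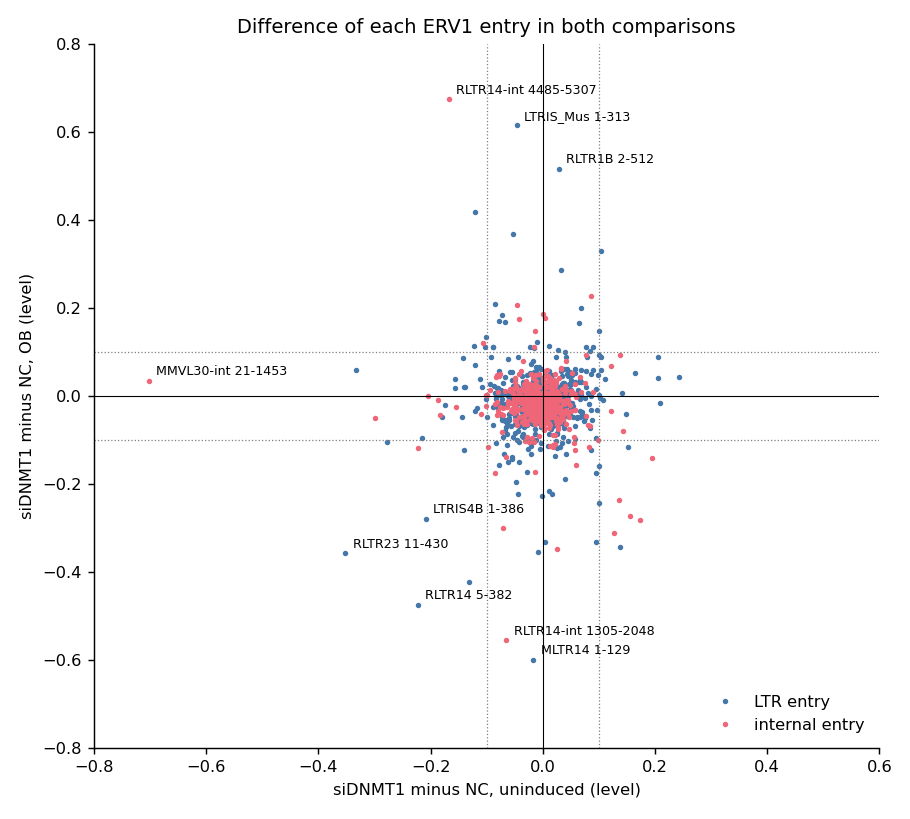
Difference in level, siDNMT1 minus NC, of each ERV1 entry in uninduced cells (x axis) and in OB cells (y axis). LTR entries are blue and internal entries red, dotted lines mark 0.1 either way, and the cloud is centred just below 0 on the y axis, with few of the far points shared by both axes.

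Falls of at least 0.2 in both comparisons were seen in 3 entries (0.224%), all LTRs, and rises of that size in 0, where 0.0868% of all repeats fell and 0.0756% rose so far in both. RLTR23 11-430 was at 0.818 in NC uninduced, 0.467 in siDNMT1 uninduced, 0.357 in NC OB and 0 in siDNMT1 OB. It was lower in siDNMT1 both times, and its NC level also differed by 0.461 between the uninduced and OB libraries, more than either siDNMT1 difference. RLTR14 5-382 was at 0.222, 0, 0.6 and 0.125. Again the NC libraries were apart, here with OB the higher. LTRIS4B 1-386 was at 0.424, 0.216, 0.362 and 0.0833, and was the one of the 3 whose NC libraries lay near each other. The entry LTRIS4B 1-383, which covers almost the same bases, was at 0.504, 0.415, 0.365 and 0.339, and LTRIS4B 1-391 at 0.374, 0.387, 0.296 and 0.27, so overlap on the consensus did not bring the same difference.

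In uninduced cells, MMVL30-int 21-1453 had the largest fall. It was at 0.833 in NC uninduced and at 0.132, 0.238 and 0.273 in siDNMT1 uninduced, NC OB and siDNMT1 OB. The NC uninduced library stood apart from the other three, NC OB included. MMERGLN_LTR 1-322 was at 0.75, 0.417, 0.75 and 0.81, and MMERGLN-int 3-303 at 0.472, 0.173, 0.525 and 0.475. In both GLN entries siDNMT1 uninduced was the library apart, and the siDNMT1 level was not low after induction. RLTR14 272-382 was at 0.714, 0.438, 0.643 and 0.538, the lower level being siDNMT1 each time. The largest rises were smaller, between 0.195 and 0.243, in RMER5 156-444, LTRIS_Mus 1-331, MLTR14 254-435, LTR78 1057-1299 and RLTR4_MM-int 1-2385. RMER5 156-444, at 0.0263, 0.269, 0.107 and 0.15, was the largest of them. None of the 5 rose by 0.1 in OB cells, where RLTR4_MM-int 1-2385 fell by 0.141.

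In OB cells, several of the largest differences belong to entries at 0 or 1 in 1 library. MLTR14 1-129 was at 0.529, 0.513, 1 and 0.4, with NC OB alone high. RLTR14-int 1305-2048 was at 0.6, 0.535, 0.556 and 0, and MLTR14 356-507 at 0.476, 0.345, 0.423 and 0. In these entries siDNMT1 OB alone stood at 0. The rises in LTRIS_Mus 1-313 (0.35, 0.304, 0.385 and 1), RLTR1B 2-512 (0.4, 0.429, 0.484 and 1) and MLTR14 103-543 (0.553, 0.5, 0.632 and 1) had siDNMT1 OB alone at 1. The rises in RLTR14-int 4485-5307 (1, 0.833, 0.2 and 0.875) and RLTR41 280-443 (0.704, 0.583, 0.2 and 0.619) had NC OB alone low. Across ERV1, siDNMT1 OB had 15 entries at 0 and 4 at 1, against 4 to 6 and 1 to 3 in the other libraries. Over all 44955 repeats, siDNMT1 OB likewise had the most, with 558 at 0 and 253 at 1, against 268 to 347 and 110 to 234. The 27 ERV1 entries at 0 or 1 in at least 1 library include 16 of the 109 changed in OB cells and 5 of the 68 changed in uninduced cells. The same overlap over all repeats is not given here. How many reads lie behind the 27 entries is unknown, and the part of depth in these differences was not tested.

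**Figure D5:**
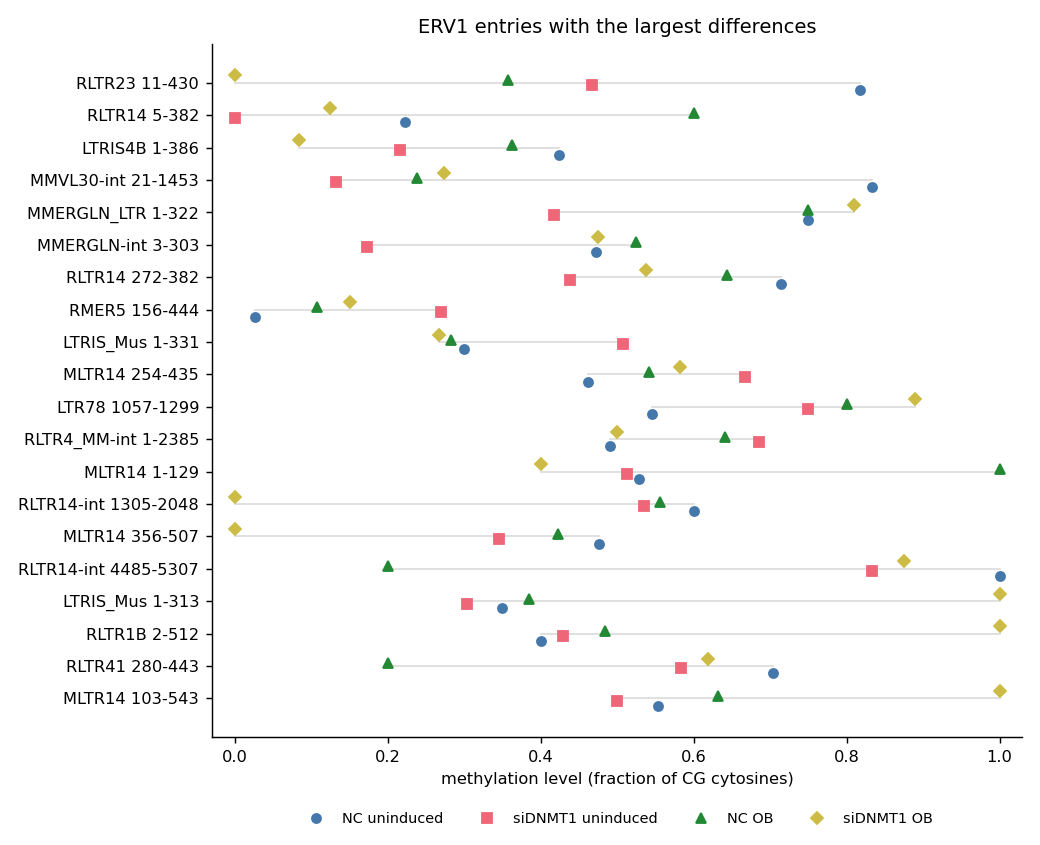
Methylation level (x axis, fraction) in the 4 libraries of the 20 ERV1 entries with the largest differences (y axis), 1 symbol per library, joined by a grey line. RLTR23, RLTR14 and LTRIS4B at the top are lower in siDNMT1 in both comparisons, and in most of the others a single library stands apart.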

How the data were processed

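The authors read base calls with CASAVA, trimmed reads in Trimmomatic 0.36, used Bismark 0.16.3 to align to mm10 and deposited, per library and region, the fraction of methylated CG cytosines (mCG/CG). The assay is labelled as reduced representation, although the protocol describes sonication. The coverage minimum, the weighting of cytosines and copies and the repeat annotation are not given in the sources used here. Without counts, depth per library is unknown and levels have no interval.

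Entries of class LTR/ERV1 with a level in all 4 libraries were used, and the class written with a question mark (1 entry in all 4 libraries) was left out. Groups came from the sample labels. The members, thresholds and groupings were chosen with earlier results of these data known, and the group of MLTR, MERV1 and MURVY names was set apart after the names were seen. Named entries were those 0.2 or more below, or above, NC in both comparisons with siDNMT1, the 5 largest falls and rises of each, and the 5 lowest mean levels. The part of this rule on CG number could not be applied, as entries have no genome position. LTRIS4, LTRIS4B, MuLV-int and RLTR6-int entries, entries at the ends of the scale and those discussed as changing in opposite directions were named in addition, after their values were seen. RefSeq (GRCm38) gave sequences and annotation, with bases numbered from 1. The script was tested on simulated data. Tools were numpy 2.4.6, pandas 2.3.3, scipy 1.17.1, and, for plots, matplotlib 3.10.9, under Python 3.11.15.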

Additional observations from a re-analysis of the deposited data

Results flagged for a closer look

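In 15 ERV1 entries the siDNMT1 difference passed 0.1 in opposite directions before and after OB induction, 6 that fell and then rose and 9 that rose and then fell. They were 1.12% of ERV1 entries, and 1.15% of all repeats did the same. Whether the comparisons differ was not tested, since each group is 1 library. RLTR14-int 4485-5307 was at 1 in NC uninduced, 0.833 in siDNMT1 uninduced, 0.2 in NC OB and 0.875 in siDNMT1 OB, so that the OB difference exceeded the uninduced one by 0.842. In RLTR41 280-443, at 0.704, 0.583, 0.2 and 0.619, the same quantity was 0.539. NC OB alone was low in both entries. In RLTR4_MM-int 1-2385, at 0.49, 0.685, 0.641 and 0.5, it was -0.336, and NC uninduced and siDNMT1 OB were the lower pair.

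MMVL30-int gave 2 of the entries that rose and then fell. Its entry 25-347 was at 0.509, 0.644, 0.649 and 0.413, and its entry 772-1467 at 0.389, 0.562, 0.583 and 0.3. RLTR6-int was the large subfamily whose median difference lay above 0 in uninduced cells (0.00149) and below 0 in OB cells (-0.0193), which after centring were 0.00753 and -0.00123. This was not tested either.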

How the results depend on the processing

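Depth is unknown, each condition is 1 library and entries are overlapping stretches of a consensus, so intervals cover the spread between entries only. No paired analysis was possible because the groups compared share 1 replicate number. A fit of siRNA plus induction over the 4 libraries was not run, since its error would be the difference between the siDNMT1 comparisons. Alternatives restricted to autosomes, to entries with at least 5 CG pairs or to entries outside islands and promoters, and the mean weighted by CG pairs, were not run, since entries have no genome position.

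With a threshold of 0.05, the changed entries numbered 259 in uninduced cells, 293 in OB cells and 289 between the NC libraries, and with 0.2 they numbered 14, 32 and 15, of which 71.4% fell in uninduced cells and 73.3% between the NC libraries. With a mean level of at least 0.5 they numbered 34, 49 and 39, and those that fell were 44.1% in uninduced cells and 30.8% between the NC libraries, from 57.4% and 50.5%. Over entries that span at least 400 bases, an alternative added after seeing the data, they numbered 28, 50 and 36, and 76% fell in OB cells. The same counts over all repeats are not given at these settings, so whether these shares are particular to ERV1 is not known.

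Centring each library on its median over all repeats (0.491, 0.485, 0.497 and 0.479) turned the median difference to 0.000818 in uninduced cells, 0.00241 in OB cells and -0.00241 between the NC libraries, and the share that fell in OB cells to 48.9% (46 fell and 48 rose). In uninduced cells 33 then fell and 36 rose, and between the NC libraries 57 and 43. Centred counts over all repeats are not given here. Centring also turned the uninduced medians of the gammaretrovirus-like families (0.000543) and other rodent names (8.84e-05), the OB medians of MERV1_I-int (0.00361), MLTR14 (0.00336), MMERGLN-int (0.00681), MuRRS-int (0.00592), MuRRS4-int (0.00125), RLTR1B (0.00365), RLTR4_MM-int (0.00499), the gammaretrovirus-like families (0.00266), other rodent names (0.000721) and MLTR, MERV1 and MURVY names (0.00109), and the NC median of the gammaretrovirus-like families (-0.00128). The mean difference between the NC libraries was 0.00149, from a median of 0.00426. Of 168 values recomputed in all, 17 turned in direction from an interval that excluded 0 or an even split, each of them by centring. The remaining alternatives (levels strictly between 0 and 1, levels in only the libraries compared, and, added after seeing the data, the mean weighted by span, the class with a question mark and leaving out MLTR14) turned none.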
